A study of Mus musculus with 8 samples.

Results

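The nuclear-encoded genes of the respiratory chain and of ATP synthase were described in the lungs of C57BL/6 mice, either wild type (WT) or DDAH1-transgenic (TG), that were treated with PBS or with house dust mite extract (HDM), the allergen of this asthma model. They were chosen by gene symbol alone, as the genes whose Entrez identifier has a mouse protein-coding symbol beginning with Nduf (other than the Ndufaf assembly factors), Sdha to Sdhd, Uqcr, Cyc1, Cox4 to Cox8 or Atp5. This gave 86 of the 23469 genes in the count table, with 38 in complex I, 4 in complex II, 9 in complex III, 18 in complex IV and 17 in complex V. The HDM dose of 100 µg, carried in 50 µl PBS, or the PBS alone was given into the trachea 3 times per week for 3 weeks. Per the study's methods, the airway response to methacholine was measured 24 hours after the last dose. Blood, lavage samples and lungs were taken after that measurement. In each of the 4 groups, named WT PBS, WT HDM, TG PBS and TG HDM after their labels, the RNA from 4 mice formed 1 pool, from which 2 libraries were sequenced. The spread between the 2 libraries is therefore technical, and no p-value below covers the variation between mice. The age and sex of the mice and the promoter of the transgene are not given in the sources used here.

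The respiratory chain sits in the inner mitochondrial membrane. Complex I (NADH dehydrogenase) and complex II (succinate dehydrogenase) pass electrons to ubiquinone, complex III passes them on to cytochrome c, complex IV (cytochrome c oxidase) passes them to oxygen, and complex V (ATP synthase) uses the proton gradient to make ATP. Complexes I, III and IV are built from catalytic or core subunits, some of them encoded in the mitochondrial genome, and from many small accessory subunits encoded in the nucleus. In the lung, type II alveolar epithelial cells and ciliated airway cells are known to be rich in mitochondria. In bulk tissue, a change in the number of cells of a type and a change in RNA per cell cannot be told apart. The proteins encoded in the mitochondrial genome were not analysed here.

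The promoters of respiratory chain genes are known to share sites for nuclear respiratory factor 1 (NRF-1, encoded by Nrf1) and for the ETS family factor GABP. Promoters were taken from RefSeq (GRCm38.p6) for 69 of the 86 genes, and the 250 bases before the start were searched on both strands. The NRF-1 motif, GCGCA and GCGC with any single base between them, occurred in 13 of 69 genes (18.8%) and in 4.23% of all 27025 genes with a promoter. The ETS motif CCGGAAG occurred in 12 (17.4%) and in 7.83% of all. The motifs do not overlap in sequence, and a match is a description and not a binding site. The following stretches, printed 5′ to 3′ on the strand of the gene with motif matches in capitals, show the motifs next to genes that rose (Ndufs5 with NRF-1, Uqcrh and Uqcr11 with ETS) and to genes with overlapping libraries in TG HDM and WT HDM (Sdha with NRF-1 and Cox6a1 with both).
Ndufs5, chr4:123718240-123718319, minus strand: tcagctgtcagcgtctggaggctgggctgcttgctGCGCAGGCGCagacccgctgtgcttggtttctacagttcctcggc
Uqcrh, chr4:116075071-116075150, minus strand: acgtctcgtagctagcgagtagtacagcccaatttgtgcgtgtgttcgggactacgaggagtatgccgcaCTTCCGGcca
Uqcr11, chr10:80406845-80406924, minus strand: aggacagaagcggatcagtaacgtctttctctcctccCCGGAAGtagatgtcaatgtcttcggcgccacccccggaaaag
Sdha, chr13:74350241-74350358, minus strand: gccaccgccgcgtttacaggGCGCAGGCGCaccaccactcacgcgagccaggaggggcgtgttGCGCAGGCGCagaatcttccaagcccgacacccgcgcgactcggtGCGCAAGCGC
Cox6a1, chr5:115348959-115349131, minus strand: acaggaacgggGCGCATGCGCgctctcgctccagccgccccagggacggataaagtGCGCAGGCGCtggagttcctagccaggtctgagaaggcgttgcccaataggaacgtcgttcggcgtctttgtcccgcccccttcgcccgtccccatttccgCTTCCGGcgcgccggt
The NRF-1 motif occurs 3 times in the Sdha stretch, the most of the 5 stretches shown.

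The 8 libraries held between 5694928 and 11929374 counts, and the smallest was TG HDM replicate 1. Levels are given as normalised read counts in CPM, a gene's counts as a share of its library's total after TMM scaling over the 8 libraries, and 3 counts corresponded to between 0.232 and 0.450 CPM. The 9 lung markers, among them Sftpc of type II cells and Scgb1a1 of club cells, had summed levels between 21210 and 72500 CPM. Ddah1, the gene of the enzyme that the transgene supplies, measured 47.8 and 34.3 CPM in WT PBS, 77.0 and 53.8 in TG PBS, 43.1 and 44.7 in WT HDM, and 34.9 and 33.4 in TG HDM. The libraries labelled TG HDM thus lay below both labelled WT HDM, which goes against the label, and every direction below that involves TG HDM rests on the labels as given. Whether reads of the transgene were counted in this gene is not given in the sources used here. Xist, transcribed from the inactive X chromosome, measured between 11.3 and 20.8 CPM in the 4 PBS libraries and between 2049 and 3042 in the 4 HDM libraries, and Ddx3y on the Y chromosome showed the opposite pattern. The sex of the mice and HDM treatment therefore cannot be told apart in any comparison of HDM with PBS, the interaction included.

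Of the 86 genes, 83 passed the filter on low counts in every comparison. Cox7b2 and Cox8c, known as testis isoforms of complex IV subunits, had 0 counts in all 8 libraries, and Cox7a1, the muscle isoform of subunit VIIa, had between 0 and 10. Per kilobase of transcript and averaged over the 8 libraries, the highest levels were those of Cox7c (199 CPM per kb), a small complex IV subunit, Atp5g3 (195), which encodes subunit c of the ATP synthase rotor ring, Cox6a1 (182), another complex IV subunit, and Atp5b (178), the catalytic β subunit of ATP synthase. The deposited counts cover coding regions, whereas these levels are per kilobase of the whole transcript. Coding sequence makes up 1587 of the 1916 bases of Atp5b and 423 of the 723 bases of Atp5g3. An order by coding length was not computed and may differ. Per kilobase of transcript, the order was not the same in every group. In the WT PBS libraries Atp5b was at 184 ± 8.91 CPM per kb (SD, n = 2 libraries) and Atp5g3 at 143 ± 9.35, whereas in TG HDM Atp5b was at 161 ± 7.44 and Atp5g3 at 362 ± 8.50. Per kb of transcript, the highest members of the other complexes were Ndufa4 (149), Sdha (31.2) in complex II and Uqcrh (101) in complex III. Ndufa4 is counted in complex I by its symbol, although its protein is now regarded as part of complex IV. These ranks may also differ by coding length, which is 1992 of 2900 bases in Sdha and 477 of 1231 in Sdhd.

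The summed level of the 86 genes was 2516 and 2642 CPM in WT PBS, 2661 and 2599 in TG PBS, 2950.0 and 3375 in WT HDM and 5319 and 5337 in TG HDM. The TG HDM libraries were above all others, and TG PBS overlapped WT PBS. The group mean in TG HDM was 1.68-fold that of WT HDM and 2.03-fold that of TG PBS, and the group mean in WT HDM was 1.23-fold that of WT PBS. Complex V contributed most CPM in every library, with 1313 and 1464 in WT HDM and 2077 and 2048 in TG HDM. For complex I the sums were 708 and 838 CPM in WT HDM and 1420.0 and 1490.0 in TG HDM, and for complex IV 463 and 590.5 in WT HDM against 997 and 1041 in TG HDM. In complex III they were 263 and 296 in WT HDM against 528 and 494 in TG HDM, and in complex II 203 and 186 in WT HDM against 297 and 264 in TG HDM. The complex I sums include Ndufa8, at 9.83 and 6.33 CPM in WT HDM and 181 and 12.5 in TG HDM replicates 1 and 2. All 5 complexes thus had their highest summed levels in both TG HDM libraries, by 1.44-fold (complex II) to 1.93-fold (complex IV) over WT HDM.

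**Figure D1:**
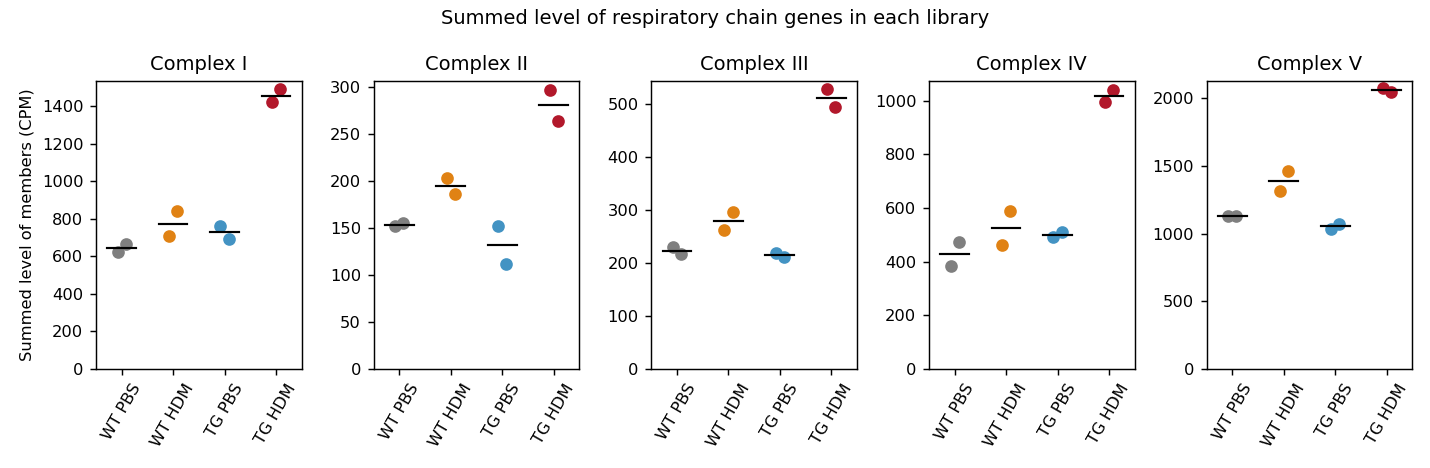
Summed level of the genes of each complex in CPM (y axis, starting at 0) in the 2 libraries (points) of each group (x axis), with the group mean as a line. In every complex both TG HDM libraries lie above the other 6 libraries, for example at 2077 and 2048 CPM in complex V against 1313 and 1464 in WT HDM.

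The comparison of HDM-treated DDAH1-transgenic mice with HDM-treated wild type mice asks how lung transcripts differ between the genotypes, as labelled, under allergen. Many respiratory chain genes were higher in TG HDM, and none was called lower. With edgeR's quasi-likelihood test and an adjusted p-value below 0.05, 19 of the 83 genes tested were higher and 0 were lower. Of all 15191 genes tested, 2.44% passed this threshold and 1.84% were higher. Among other genes with transcripts of 500 to 1000 bases, where 43 of the 83 genes lie, 11.7% passed. With a transcript length trend removed from each library, 2 of the 19 calls remained. The median log2 fold change was 1.00 over the 83 genes and 0.01 over all genes tested, and 75 of the 83 were above 0. The median was 0.55 with the length trend removed. The libraries of the groups did not overlap for 58 genes that were higher and 3 that were lower, and of all genes tested 23.2% were higher and 25% lower without overlap. The 3 genes that were lower in both TG HDM libraries were Ndufab1, Cox4i2 and Atp5b. Of the 19 genes, 17 have a coding sequence under 450 bases, as have 31 of the 64 that were not called. The count was 0 when either WT HDM library was left out and 32 without TG HDM replicate 2, where the lone library of a group was assumed to vary like the other group.

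**Figure D2:**
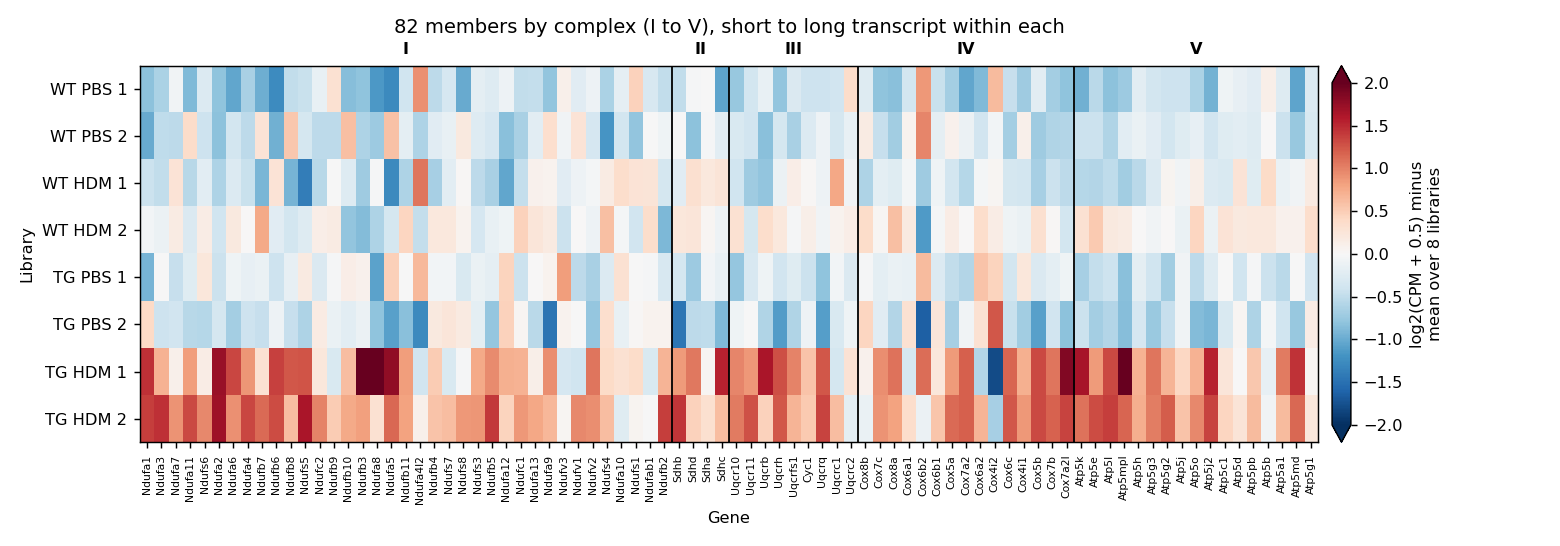
Level of 82 of the 83 tested genes (columns, by complex I to V and within each from the shortest to the longest transcript) in each library (rows), as log2(CPM + 0.5) minus the gene's mean over the 8 libraries, with red above and blue below the mean. The TG HDM rows are mostly red, and Cox4i2 is the darkest blue in them.

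In complex I, 5 of 38 genes rose in TG HDM compared to WT HDM, where 2.44% of all genes tested were called. All 5 were counted as accessory subunits. Ndufa2 was at 9.25 and 9.15 CPM in the WT PBS libraries, 10.6 and 12.4 in WT HDM, 12.2 and 12.8 in TG PBS and 56.04 and 54.9 in TG HDM. Both TG HDM libraries were well above the other 6, with a log2 fold change of 2.31 ± 0.33 (SE, adjusted p = 0.00311, edgeR). Ndufb3, an accessory subunit of the membrane arm, was at 9.65 and 11.03 CPM in the WT PBS libraries, 10.4 and 9.24 in WT HDM, 18.3 and 15.9 in TG PBS and 82.1 and 30.9 in TG HDM. The TG HDM libraries were far apart from each other but did not overlap with any other group, at a log2 fold change of 2.56 ± 0.46 (adjusted p = 0.0126). Ndufs5, an accessory subunit in spite of a symbol that it shares with iron-sulfur proteins, was at 5.72 and 13.1 CPM in WT HDM and 38.2 and 49.7 in TG HDM (2.27 ± 0.44 on the log2 scale, adjusted p = 0.0191). Of the 50-base stretches in its transcript, 31.1% also occur in transcripts of other genes, the pseudogene BC002163 foremost, so that its count is uncertain. Ndufa4 was at 58.4 and 80.2 CPM in WT HDM and 148 and 202 in TG HDM (log2 fold change 1.37 ± 0.24, adjusted p = 0.0129), and Ndufb5 rose as well.

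The 7 nuclear-encoded core subunits of complex I, which carry the flavin and the iron-sulfur clusters, gave 0 calls in this comparison. Of all genes tested, 2.44% were called and 23.2% were higher without overlap, and 0 of 7 is near the first share. The log2 fold changes of the core subunits ran from 0.25 to 1.31, with a median of 0.49. Ndufv1, which binds NADH, was at 12.5 and 13.6 CPM in WT HDM and 10.04 and 26.6 in TG HDM, so that the groups overlapped. Ndufs1, the largest iron-sulfur subunit, was at 29.1 and 18.4 in WT HDM against 31.02 and 24.9 in TG HDM, also with overlap. The 31 accessory subunits had a median of 1.18, and 5 of them rose. The core subunits have longer transcripts (median 1623 bases, against 763), and with the transcript length offset the medians were 0.29 for the core and 0.69 for the accessory subunits, with 0 and 1 calls. Among the accessory subunits that were not called, Ndufa6 was at 12.5 and 17.5 CPM in WT HDM and 39.4 and 29.1 in TG HDM, Ndufb6 at 14.7 and 10.2 in WT HDM against 31.9 and 30.5 in TG HDM and Ndufa1 at 6.08 and 8.04 in WT HDM against 24.1 and 22.8 in TG HDM, all without overlap. Others lay close together, such as Ndufa10 at 19.6 and 14.9 CPM in WT HDM against 19.03 and 12.9 in TG HDM and Ndufb9 at 58.6 and 65.6 in WT HDM against 47.4 and 83.7 in TG HDM. Ndufab1, which encodes the mitochondrial acyl carrier protein, was at 65.3 and 69.5 CPM in WT HDM and 43.9 and 53.99 in TG HDM, with TG HDM the lower (adjusted p = 0.456). These examples, and Ndufa8 after them, were chosen after their values were seen.

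A separate case was Ndufa8, an accessory subunit with cysteine motifs that is folded in the intermembrane space. It had 1205 and 161 counts in TG HDM replicates 1 and 2, or 181 and 12.5 CPM, against 9.83 and 6.33 CPM in WT HDM. Its log2 fold change of 3.62 ± 0.87 did not pass (adjusted p = 0.0551), and without TG HDM replicate 1 the log2 fold change was 0.64.

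In complex II, 0 of 4 genes were called in the comparison of TG HDM with WT HDM. This is near the share of all genes tested, of which 2.44% were called. Sdha, the flavoprotein that oxidizes succinate, was at 88.4 and 87.7 CPM in the WT PBS libraries, 104 and 91.3 in WT HDM, 86.1 and 62.7 in TG PBS and 91.5 and 112 in TG HDM, with TG HDM overlapping WT HDM. Sdhb, the iron-sulfur subunit, was at 16.3 and 22.6 CPM in WT HDM and 35.2 and 52.9 in TG HDM, with no overlap and a log2 fold change of 1.22 ± 0.35 (adjusted p = 0.101). Sdhc, a membrane anchor, was at 39.9 and 31.1 CPM in WT HDM against 98.4 and 51.5 in TG HDM (1.12 ± 0.34 on the log2 scale, adjusted p = 0.12).

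In complex III, 3 of 9 genes rose, where 2.44% of all genes tested were called. They were 3 of the 5 small subunits. Uqcrh, the hinge protein next to cytochrome c1, was at 26.6 and 36.3 CPM in the WT PBS libraries, 42.6 and 53.6 in WT HDM, 35.2 and 21.1 in TG PBS and 114 and 111 in TG HDM, a log2 fold change of 1.26 ± 0.24 in TG HDM against WT HDM (adjusted p = 0.019). Uqcr11, the smallest subunit, was at 21.01 and 27.03 CPM in WT HDM and 63.5 and 84.4 in TG HDM (1.66 ± 0.30 on the log2 scale, adjusted p = 0.0129). Uqcrq, a ubiquinone-binding subunit, was at 17.5 and 17.9 CPM in WT HDM against 45.2 and 49.1 in TG HDM (1.45 ± 0.32, adjusted p = 0.0355). All 5 small subunits lay without overlap above WT HDM, where 23.2% of all genes tested did. Their median log2 fold change was 1.33. The 4 redox and core proteins gave 0 calls, which is near the share of all genes, and a median of 0.30. With the transcript length offset the medians were 0.83 and 0.12, and 0 genes of either set were called. Among these, Uqcrc1 was at 40.2 and 24.6 CPM in WT HDM and 18.1 and 36.02 in TG HDM and Uqcrc2 at 45.4 and 52.05 in WT HDM against 58.4 and 41.5 in TG HDM, both with overlap. The cytochrome c1 gene Cyc1 was at 28.9 and 30.9 CPM in WT HDM against 42.2 and 41.3 in TG HDM and the Rieske iron-sulfur protein gene Uqcrfs1 at 38.1 and 33.96 in WT HDM against 69.5 and 55.9 in TG HDM, neither with overlap.

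In complex IV, whose catalytic core is encoded in the mitochondrial genome, 6 of the 15 genes tested rose. Of all genes tested, 2.44% were called. Cox7a2l, known as a factor in the assembly of respiratory supercomplexes, was at 26.8 and 31.3 CPM in the WT PBS libraries, 32.9 and 36.5 in WT HDM, 44.4 and 26.5 in TG PBS and 172 and 121 in TG HDM. With a log2 fold change of 2.12 ± 0.26 (adjusted p = 0.0016), it had the smallest adjusted p-value of the 83 genes. Cox7a2, the isoform of subunit VIIa found in most tissues, was at 19.6 and 29.2 CPM in WT HDM and 67.4 and 67.7 in TG HDM (1.51 ± 0.30, adjusted p = 0.0254). Cox6c was at 31.7 and 38.2 CPM in WT HDM against 91.7 and 97.3 in TG HDM (1.47 ± 0.25, adjusted p = 0.0111), and Cox7c at 85.9 and 102 in WT HDM against 189 and 184 in TG HDM (1.03 ± 0.21, adjusted p = 0.0237). Cox5a and Cox7b rose as well. Cox6a1 was at 99.6 and 116 CPM in WT HDM against 81.4 and 130.4 in TG HDM and Cox6b1 at 23.96 and 24.9 in WT HDM against 30.1 and 37.8 in TG HDM. The libraries overlapped for Cox6a1 and did not for Cox6b1, and neither was called. Of the 50-base stretches in the Cox7c transcript, 53.0% also occur in transcripts of other genes, the pseudogene Gm10012 foremost, so that its count is uncertain.

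In complex V, 5 of 17 genes rose, where 2.44% of all genes tested were called and 23.2% were higher without overlap. Of the small membrane subunits, which hold ATP synthase dimers together, 3 of 5 were called, and all 5 were above WT HDM without overlap. Their median log2 fold change was 1.54, and with the transcript length offset it was 1.27 with 0 calls. Atp5mpl was at 7.74 and 11.3 CPM in the WT PBS libraries, 7.96 and 14.8 in WT HDM, 7.19 and 7.08 in TG PBS and 53.9 and 30.3 in TG HDM (1.93 ± 0.43 on the log2 scale in TG HDM against WT HDM, adjusted p = 0.0402). Atp5j2 was at 12.4 and 13.97 CPM in WT HDM and 45.1 and 39.7 in TG HDM (1.72 ± 0.34, adjusted p = 0.0231). Atp5l was at 54.98 and 89.8 CPM in WT HDM against 197 and 204 in TG HDM (1.51 ± 0.25, adjusted p = 0.00923), but 84.8% of its 50-base stretches are shared with other genes. In the catalytic F1 part, α and β subunits alternate in the same ring. Atp5a1 (α) was at 195 and 228 CPM in WT HDM and 440.1 and 333 in TG HDM and rose (0.91 ± 0.20, adjusted p = 0.0393). Atp5b (β) was at 439 and 391 CPM in WT HDM against 299 and 319 in TG HDM, with both TG HDM libraries below WT HDM (adjusted p = 0.299). The ratio of Atp5b to Atp5a1 CPM was between 1.68 and 2.25 in the other 6 libraries and 0.679 and 0.957 in TG HDM. Atp5c1, the γ subunit of the central stalk, was at 54.4 and 81.4 CPM in WT HDM against 79.9 and 90.8 in TG HDM, with 1 of the 2 TG HDM libraries above both of WT HDM. The 3 genes of the rotor ring encode the same mature subunit c. Atp5g3 was at 105 and 121 CPM in WT HDM and 266 and 257 in TG HDM (1.25 ± 0.20, adjusted p = 0.00721), whereas Atp5g1 was at 47.5 and 53.8 in WT HDM against 43.1 and 48.9 in TG HDM. Atp5g2 was at 23.6 and 22.6 in WT HDM against 36.4 and 52.7 in TG HDM, without overlap, but 87.4% of its 50-base stretches are shared. The 4 subunits of the peripheral stalk gave 0 calls, which is near the share of all genes, with log2 fold changes from 0.60 to 1.00. All 4 lay above WT HDM without overlap.

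The 3 members on the X chromosome were Ndufa1, Ndufb11 and Cox7b. Of these Cox7b was called in TG HDM against WT HDM, where 2.44% of all genes were. Cox7b and Ndufb11 were called in TG HDM against TG PBS, where 13.8% of all genes were. In WT HDM against WT PBS, 0 of the 3 were called, and 6.74% of all genes. Cox7b was at 16.9 and 17.97 CPM in the WT PBS libraries, 20.3 and 27.8 in WT HDM, 23.96 and 21.04 in TG PBS and 58.3 and 62.9 in TG HDM, and Ndufb11 was at 33.5 and 38.9 CPM in the WT PBS libraries, 28.7 and 59.9 in WT HDM, 44.2 and 24.8 in TG PBS and 79.7 and 78.01 in TG HDM. The 4 HDM libraries, which carried Xist, overlapped the 4 PBS libraries in both genes, and whether sex acted on their levels was not tested.

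In PBS-treated mice, the comparison of TG with WT gave 0 calls among the 83 genes, and 2 had an unadjusted p-value below 0.05, as had 9.98% of all genes. These were Ndufs4, at 15.3 and 10.3 CPM in WT PBS and 19.8 and 30.6 in TG PBS (adjusted p = 0.371), and Atp5b, at 364 and 340.1 in WT PBS against 249 and 326 in TG PBS (adjusted p = 0.487). Of all 14926 genes tested, 0.657% passed the threshold (98 genes). DESeq2 also called 0 of the 83. The median log2 fold change was 0.10 over the 83 genes, 51 were above 0 and 32 below, and the medians of the complexes ran from -0.26 (complex II) to 0.28 (complex IV). Ndufa2 and Cox7a2l, both higher in TG HDM than in WT HDM, were at 9.25 and 9.15 and at 26.8 and 31.3 CPM in WT PBS, and at 12.2 and 12.8 and at 44.4 and 26.5 in TG PBS. The libraries of the groups did not overlap for 21 genes that were higher and 8 that were lower in TG PBS, and of all genes 20% were higher and 20.4% lower without overlap.

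HDM against PBS in wild type mice gave 1 call among the 83 genes, where 6.74% of all 15123 genes tested were called, 4.44% higher and 2.3% lower. This was Ndufs4, an accessory subunit needed for a stable complex I, which was at 15.3 and 10.3 CPM in the WT PBS libraries, 27.00 and 36.6 in WT HDM, 19.8 and 30.6 in TG PBS and 31.3 and 37.3 in TG HDM, a log2 fold change of 1.31 ± 0.35 in WT HDM against WT PBS (adjusted p = 0.0405, edgeR). It was not called when WT PBS replicate 2 or WT HDM replicate 2 was left out, and the TG PBS libraries overlapped WT HDM. The median log2 fold change of the 83 genes was 0.29, and 64 were above 0. It was 0.12 without WT HDM replicate 2 and 0.45 without WT HDM replicate 1.

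HDM against PBS in DDAH1-transgenic mice gave 42 calls, with 41 of the 83 genes higher and 1 lower, where 13.8% of all 15086 genes tested were called, 8.43% higher and 5.35% lower. The median log2 fold change was 1.28, and 57 of the 83 had an unadjusted p-value below 0.05, as had 27.7% of all genes. The libraries of the groups did not overlap for 62 genes that were higher and 2 that were lower, against 28.8% and 28% of all genes. Calls were spread over complex I (12 of 38), complex II (3 of 4), complex III (6 of 9), complex IV (8 higher of 15) and complex V (12 of 17). All 19 genes called in TG HDM against WT HDM were also among the 41, and both comparisons use the same TG HDM libraries. In complex II, Sdhb was at 14.98 and 6.77 CPM in TG PBS and 35.2 and 52.9 in TG HDM (2.04 ± 0.43 on the log2 scale, adjusted p = 0.00869), and the anchors Sdhc (1.67 ± 0.38, adjusted p = 0.0127) and Sdhd (1.45 ± 0.33, adjusted p = 0.0125) rose with it. All 5 small subunits of complex III rose, among them Uqcrq, at 10.6 and 8.56 CPM in TG PBS and 45.2 and 49.1 in TG HDM (2.32 ± 0.35, adjusted p = 0.00131), Uqcrh (2.02 ± 0.29) and Uqcrb (1.53 ± 0.41), with the smallest change for Uqcr11 (1.28 ± 0.29).

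In complex V all 5 small membrane subunits rose, and the 4 largest changes of the complex were among them. Atp5mpl was at 7.19 and 7.08 CPM in TG PBS and 53.9 and 30.3 in TG HDM (2.58 ± 0.42, adjusted p = 0.00192), Atp5j2 at 12.7 and 7.82 in TG PBS against 45.1 and 39.7 in TG HDM (2.07 ± 0.38, adjusted p = 0.00411), and Atp5k at 6.79 and 8.03 in TG PBS against 35.7 and 23.8 in TG HDM (2.03 ± 0.43, adjusted p = 0.00896). The smallest called change in this complex was that of the peripheral stalk subunit Atp5pb (0.90 ± 0.26, adjusted p = 0.0386). In complex IV, Cox7a2l (2.07 ± 0.30) and Cox5b (2.03 ± 0.39), the zinc-binding subunit, rose most, and Cox7c (1.15 ± 0.21) rose least of those called. In complex I the largest called changes were those of Ndufa8 (4.31 ± 0.89, adjusted p = 0.00803), which was not called without TG HDM replicate 1, of Ndufa2 (2.17 ± 0.32, adjusted p = 0.00113) and of the core subunit Ndufv2 (1.78 ± 0.35, adjusted p = 0.00603), and Ndufb11 (1.21 ± 0.31) had the smallest. The count of 42 fell to 10 without TG PBS replicate 1 and to 2 without TG PBS replicate 2.

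**Figure D3:**
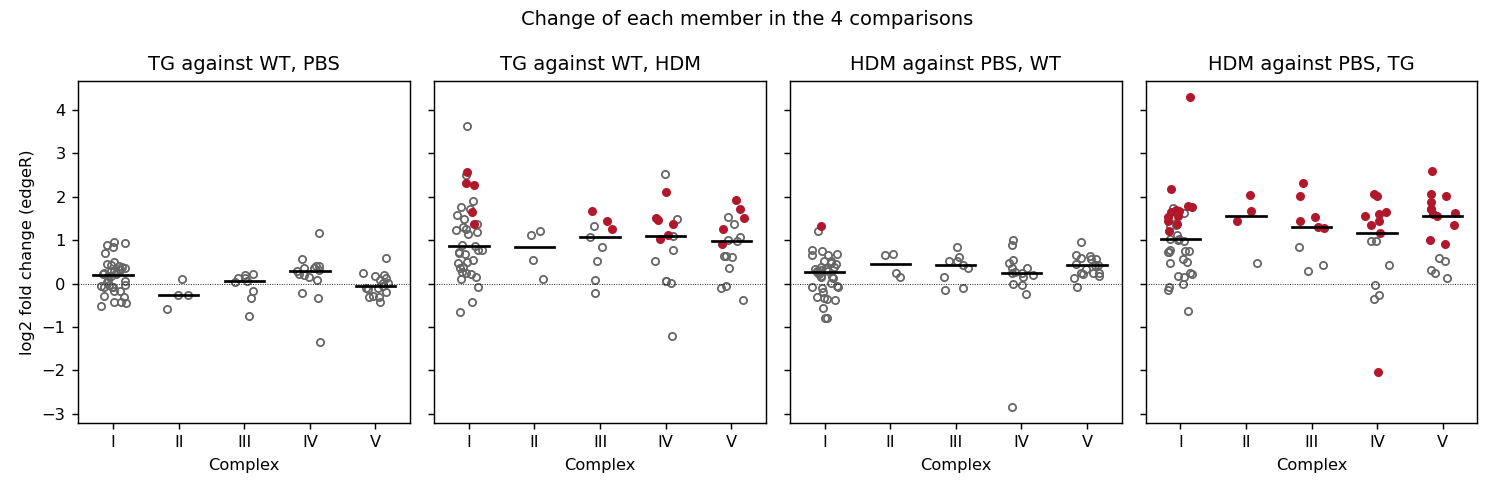
Log2 fold change of each tested gene (y axis, points) by complex (x axis) in the 4 comparisons, with filled points for genes with an adjusted p-value below 0.05 (edgeR) and the median of each complex as a line. The filled points number 0, 19, 1 and 42 from left to right, and the 1 filled point below 0 is Cox4i2.

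Cox4i2 was the only gene of the 83 called lower in any of the 4 comparisons. It encodes the isoform of subunit IV that is known for its high level in lung and its role in oxygen sensing, whereas Cox4i1 encodes the isoform of most tissues. Cox4i2 was at 41.6 and 25.7 CPM in the WT PBS libraries, 27.4 and 29.5 in WT HDM, 36.2 and 63.8 in TG PBS and 7.34 and 16.7 in TG HDM. Both TG HDM libraries were below the other 6, by a log2 fold change of -2.02 ± 0.44 against TG PBS (adjusted p = 0.00973) and -1.20 ± 0.44 against WT HDM (adjusted p = 0.205, not called). The call was lost when either TG PBS library was left out. Cox4i1 was at 13.3 and 23.6 CPM in the WT PBS libraries, 16.8 and 19.9 in WT HDM, 25.9 and 13.3 in TG PBS and 36.4 and 40.2 in TG HDM, with both TG HDM libraries above the others. The ratio of Cox4i2 to Cox4i1 was 3.14 and 1.09 in WT PBS, 1.63 and 1.48 in WT HDM, 1.40 and 4.79 in TG PBS and 0.202 and 0.414 in TG HDM. The isoform for lung was thus the more abundant in the other 6 libraries and the less abundant in TG HDM.

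The other isoform pairs showed low levels of the isoforms known from other tissues. Cox6a2, known from heart and skeletal muscle, was at 2.21 and 3.35 CPM in the WT PBS libraries, 4.38 and 5.93 in WT HDM, 6.99 and 5.71 in TG PBS and 2.85 and 7.51 in TG HDM, or between 0.0279 and 0.0753 of Cox6a1 in the same library. Cox8b, another muscle isoform, was between 0.357 and 1.27 CPM and Cox8a, its counterpart in most tissues, between 18.8 and 72.7. Cox6b2, known from testis, was between 0 and 2.85 CPM and Cox6b1 between 18.7 and 37.8. Ndufa4l2, which is known as a target of hypoxia signalling, was at 6.63 and 1.96 CPM in the WT PBS libraries, 7.42 and 2.21 in WT HDM, 5.39 and 1.06 in TG PBS and 2.40 and 3.56 in TG HDM, and in every group but TG HDM replicate 1 was well above replicate 2. Cox6a2, Cox8b, Cox6b2 and Ndufa4l2 gave 0 calls in the 4 comparisons and the interaction, at counts so low that only large differences were detectable. The summed level of the 12 skeletal muscle markers was 43.3 and 46.6 CPM in WT PBS, 222 and 230.5 in WT HDM, 286 and 301 in TG PBS and 156 and 166 in TG HDM. In TG PBS against WT PBS, 9 of the 11 markers tested were called higher, where 0.281% of all genes were. In WT HDM against WT PBS 9 of 10 were called higher, where 4.44% of all genes were. In TG HDM against WT HDM 0 of 12 were called, where 2.44% of all genes were. In TG HDM against TG PBS 2 of 12 were called lower, where 5.35% of all genes were. The part of these markers in the values of the respiratory chain genes was not tested. The 9 heart muscle markers summed to 313 and 349.6 CPM in WT PBS, 218 and 204 in WT HDM, 147 and 176 in TG PBS and 101 and 119 in TG HDM. Single markers differed from these sums. In both TG HDM libraries 1 of the 12 skeletal and 1 of the 9 heart muscle markers were above all other libraries, which were Mylpf (16.9 and 22.8 CPM in TG HDM, and 13.5 and 10.8 in WT HDM) and Myl3 (18.6 and 8.68 and, in WT HDM, 3.49 and 4.72), chosen after their values were seen. The 6 adipose markers summed to between 18.7 and 78.8 CPM, the 2 brown fat markers to between 0 and 2.61 and the 5 eosinophil markers to between 13.9 and 32.7.

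Whether TG differed from WT by another amount under HDM than under PBS was tested as an interaction over all 8 libraries. It passed the threshold for 3 of the 83 genes, Uqcrq, Cox7a2l and Atp5g3, where 1.76% of all 15868 genes were called, 1.05% with a higher and 0.706% with a lower effect under HDM. Uqcrq had a difference of 2.14 ± 0.49 on the log2 scale (adjusted p = 0.0275), Cox7a2l of 1.79 ± 0.39 (adjusted p = 0.0221) and Atp5g3 of 1.49 ± 0.26 (adjusted p = 0.00468). Uqcrq was at 14.1 and 17.6 CPM in WT PBS and 10.6 and 8.56 in TG PBS. TG thus lay below WT under PBS and above it under HDM, without overlap in either. The difference under PBS was not called (adjusted p = 0.616, edgeR), and 20.4% of all genes were lower without overlap in that comparison. For Cox4i2 the difference was -1.79 ± 0.55 (adjusted p = 0.117). The median difference over the 83 genes was 0.87, 69 were above 0, and 32 had an unadjusted p-value below 0.05, as had 14.7% of all genes. The count was 1 without WT PBS replicate 2, WT HDM replicate 1 or TG PBS replicate 2, 6 without WT HDM replicate 2 and 8 without TG HDM replicate 2, and DESeq2 called 17.

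Members of this family are short. The median transcript was 823.5 bases (360 to 4715), against 2619 for all genes, and 52 of the 86 were under 1000 bases. For a few genes, such as Ndufb2, Atp5g1 and Atp5md, the annotated principal transcript has between 2733 and 4715 bases although the coding sequence has between 174 and 408. In TG HDM against WT HDM, log2 fold changes were lower for longer transcripts. Across 14454 genes Spearman's rho was -0.28, and across the 83 members -0.38 (-0.46 with coding length). These are correlations across genes of the same 4 libraries, and genes are not independent replicates. Among other genes, the median log2 fold change was 0.88 under 500 bases, 0.65 from 500 to 1000, 0.30 from 1000 to 2000, 0.02 from 2000 to 4000 and -0.18 above. The respiratory chain genes had medians of 1.31, 1.23, 0.55 and 0.27 in the 4 ranges up to 4000 bases, with 6, 43, 25 and 7 genes. From 500 to 1000 bases, 13 of 43 respiratory chain genes and 11.7% of the other genes were called. In all, 64 of the 83 were above the median of the other genes of their range. Under PBS, the medians of other genes lay between -0.01 and 0.02 in all 5 ranges. The genes with a coding sequence at or under the median of 400.5 bases had 15 of the 19 calls, with a median log2 fold change of 1.37 against 0.60 for the longer ones.

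**Figure D4:**
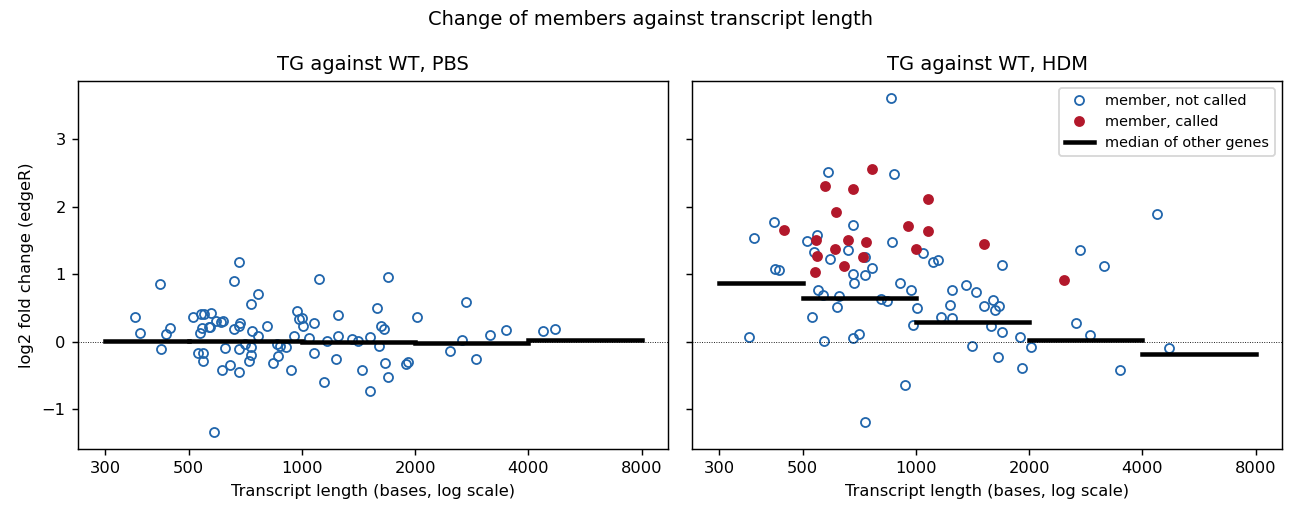
Log2 fold change of TG against WT (y axis) against transcript length (x axis, log scale) for the 83 tested genes (points, filled if called) under PBS and HDM, with the median of all other genes in 5 length ranges as bars, the outermost bars drawn to fixed ends. Under HDM the bars fall from 0.88 to -0.18, and 64 of the 83 points lie above their bar.

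The length trend was also seen in single libraries. Across 15017 genes, the deviation of a gene from its mean over the 8 libraries correlated with transcript length at a Spearman's rho of -0.23 and -0.37 in TG HDM, of 0.04 and -0.02 in WT HDM, and between 0.15 and 0.19 in the 4 PBS libraries. Across the 83 respiratory chain genes alone, rho was -0.28 and -0.38 in TG HDM but differed between libraries of the same pool in WT HDM (0.51 and -0.06) and in WT PBS (0.31 and 0.10). When a length trend was fitted in each library and removed as an offset, the calls that remained in TG HDM against WT HDM were Ndufa2 (log2 fold change 1.76, adjusted p = 0.0287, edgeR) and Cox7a2l (1.73, adjusted p = 0.0157), where 1.31% of all genes were called. With coding length in place of transcript length, 5 remained, which were Atp5a1, Atp5g3, Cox7a2l, Ndufa2 and Ndufb3, with a median of 0.64, where 1.37% of all genes were called. In TG HDM against TG PBS, 16 of the 42 calls remained with the transcript length offset, against 9.54% of all genes. These included Sdhb, Sdhc, Ndufv2, Uqcrq, Uqcrh and 4 of the 5 small membrane subunits of complex V. Cox4i2 remained lower, at -2.85 (adjusted p = 0.00214). In the interaction, Cox4i2 was the 1 gene called with this offset (-2.34, adjusted p = 0.0397), and Uqcrq, Cox7a2l and Atp5g3 were not. With 1 pool of RNA in each group, the length trend and the conditions cannot be told apart.

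**Figure D5:**
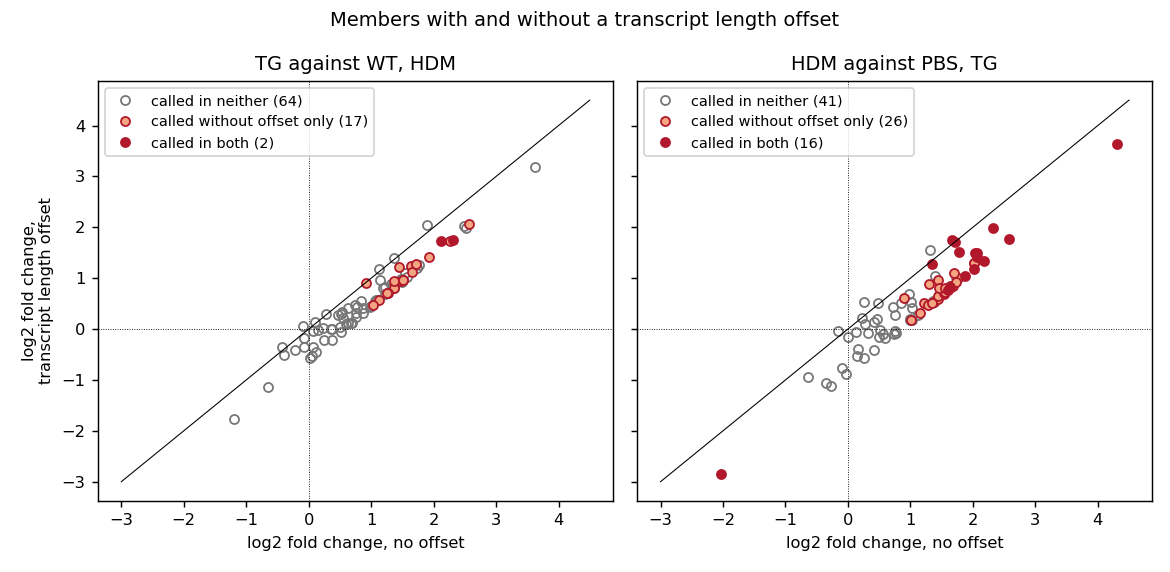
Log2 fold change of each tested gene without (x axis) and with (y axis) a transcript length offset, with the line of equal values. Most points lie under the line, and of the 19 (left) and 42 (right) called genes 2 and 16 are called in both.

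Cytosolic ribosomal protein genes, which are also short, moved in the same direction. In TG HDM against WT HDM, 58 of 78 rose, with a median log2 fold change of 1.24. Of the mitochondrial ribosomal protein genes 3 of 78 rose (Mrpl20, Mrps16 and Mrps28), with a median of 0.68. This share of 3.85%, and the 4.35% of assembly factors called in either direction, are near the 2.44% of all genes called. Of the respiratory chain assembly factors, which build the complexes but are not part of them, 1 of 46 rose and 1 fell, with a median of 0.46. These were Cox17, the copper chaperone of complex IV (2.07 on the log2 scale, adjusted p = 0.00822), and Cox15, which makes its heme A (-1.76, adjusted p = 0.0186). The 17 genes of electron carriers and the tricarboxylic acid cycle gave 0 calls and a median of 0.10, with 3 at an unadjusted p-value below 0.05, as had 16.2% of all genes. Their summed level was 1087 and 1103 CPM in WT HDM and 968 and 1119 in TG HDM. Cycs, which encodes cytochrome c, was at 65.98 and 99.9 CPM in WT HDM against 81.4 and 77.3 in TG HDM, and Cs, which encodes citrate synthase, at 159 and 129.5 in WT HDM against 97.5 and 118 in TG HDM. Of 15 regulators of mitochondrial biogenesis 0 were called, with a median of -0.19 and 2 at an unadjusted p-value below 0.05. Ppargc1a, the PGC-1α coactivator, was at 18.2 and 14.5 CPM in WT HDM and 7.19 and 13.5 in TG HDM, and Nrf1 at 10.6 and 18.3 in WT HDM against 15.6 and 12.4 in TG HDM.

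The genes were also divided by the promoter motifs shown for Ndufs5, Uqcrh, Uqcr11, Sdha and Cox6a1. Of the 67 tested genes with a RefSeq promoter, the 13 with the NRF-1 motif had a median log2 fold change of 0.98 in TG HDM against WT HDM and 1 call, and the 54 without it a median of 1.07 and 13 calls. With the ETS motif, 12 genes had a median of 1.04 and 3 calls, and without it 55 had a median of 1.03 and 11 calls.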

How the data were processed

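Lung RNA of 4 mice per group was pooled, amplified with the SPIA method and sequenced as 50-base single reads, with 2 libraries per group and 8 in all. The authors deposited read counts over the coding regions of each gene, as whole numbers with no normalization. Per the labels and the study's methods, reads were converted with CASAVA 1.8 and bcl2fastq, aligned to mm10 with TopHat and counted in R, and DESeq is named as well in the submitters' processing notes. Whether the counting used strand is not given in the sources used here. Of the 23469 Entrez identifiers in the table, 23372 were named through RefSeq GRCm38.p6, and transcript and coding lengths were taken from GENCODE M21 (1 annotated principal transcript per gene, for 21145 genes). Samples were grouped by their labels.

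Counts were tested with edgeR 4.0.16 (R 4.3.3) by quasi-likelihood F-tests after TMM scaling and filterByExpr with a minimum count of 10, each comparison on its own 4 libraries and the interaction on all 8. Genes with a Benjamini-Hochberg adjusted p-value below 0.05 over all genes tested were called. Standard errors were derived from the fold change and the F statistic. Length and GC offsets were loess fits (span 0.5) of log2 CPM in each library. Alternatives were DESeq2 1.42.0, median-ratio scaling, no filter, a replicate block, all 8 libraries in 1 fit, the offsets, the removal of genes with over 20% of 50-base stretches shared with other genes (17 of 86), and the removal of each library in turn. The scripts were tested on simulated counts. Genes named in the text were, in each comparison and complex, the 3 with the largest change and the 1 with the smallest among those called without overlap, any called against the majority direction, the highest per kb in each complex, catalytic or core subunits, isoform pairs, and Ndufa2, Ndufs5 and Cox7a2l, which the study names. The values of 1 gene that this rule names are not reported here. Genes named outside this rule were chosen after their values were seen. The genes, lists and tests were chosen with earlier results of these data known. Standard errors and SDs reflect the variation between libraries of a pool and not between mice. Limits of 3 counts cover counting error only. Total counts per library ranged from 5694928 to 11929374.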

Additional observations from a re-analysis of the deposited data

Results flagged for a closer look

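By the interaction test of edgeR over 8 libraries, 3 of the 83 genes (3.61%) were called, where 1.76% of all 15868 genes were. Each group is 1 pool of RNA, and sex and HDM treatment cannot be told apart here. The genotype effect under HDM minus that under PBS was 2.14 on the log2 scale for Uqcrq, a small subunit of complex III, 1.79 for Cox7a2l of complex IV and 1.49 for Atp5g3 of complex V. Without TG PBS replicate 2, 1 of the 83 genes was called, and with the transcript length offset none of these 3 was. With 2 libraries per group, no library was tested as lying far from the others of its group.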

How the results depend on the processing

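The number of genes called in TG HDM against WT HDM (19) was 34 with DESeq2, 38 without the low-count filter, 2 with the transcript length offset and 5 with the coding length offset, and the median log2 fold change (1.00) was 0.55 and 0.64 with these offsets. Without the 17 genes with over 20% of their 50-base stretches shared, 15 of the 66 tested were called, with a median of 0.89. In TG HDM against TG PBS, 30 of these 66 were called higher and 1 lower. Among the 17 are Ndufb6 (34.1%), Uqcrb (43.4%), Cox5a (32.0%), Cox5b (25.9%), and Atp5pb (38.7%), Atp5h (47.9%) and Atp5o (34.0%) of the peripheral stalk. In TG HDM against TG PBS the 42 calls became 16 with the transcript and 19 with the coding length offset, and the median (1.28) 0.54 and 0.66. In WT HDM against WT PBS the 1 call became 2 without the filter and 0 with the transcript length offset, which moved the median from 0.29 to 0.091. The 3 interaction calls became 17 with DESeq2, 16 without the filter, 1 with the transcript length offset and 6 with the GC offset. With each library left out in turn, calls ranged from 0 to 32 and the median from 0.73 to 1.26 in TG HDM against WT HDM, from 2 to 40 and from 1.10 to 1.29 in TG HDM against TG PBS, from 0 to 3 and from 0.12 to 0.45 in WT HDM against WT PBS, and from 1 to 8 in the interaction. In TG PBS against WT PBS, calls were 0 under all alternatives run, and the median (0.10) ranged from -0.026 to 0.25. Across the alternatives, 44 single fold changes were followed. Of these, Ndufa8, Sdhb, Sdhc and Cox4i2 in TG HDM against WT HDM and Cox4i2 in the interaction were not called to begin with. Of the others, the transcript length offset took 26 and the coding length offset 20 past the threshold to not called. None of the 44 changed sign. Apart from what the offsets take out by construction, the causes were not tested.

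Replicate numbers of different groups did not go together (correlations of replicate 1 minus replicate 2 from -0.02 to 0.03 over 15868 genes), so the samples share only a number. With the replicate block, 27 genes were called in TG HDM against WT HDM and 6 in the interaction. The block together with the transcript length offset gave 8 calls and a median of 0.54 in TG HDM against WT HDM, 18 and 0.57 in TG HDM against TG PBS, and a median of 0.087 in WT HDM against WT PBS.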
